A study of Mus musculus with 39 samples.

Results

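The genes of the proteasome, the protease that degrades ubiquitin-tagged proteins, were followed in whole liver of male B6C3F1 mice given phenobarbital for 1, 7, 28 or 91 days. Genes were taken by symbol, as Psma, Psmb, Psmc or Psmd followed by a number, without the interferon-inducible subunits Psmb8, Psmb9 and Psmb10. The brightest probe set stood for each gene. The rule found 37 of the 18193 genes on the array, covered by 76 probe sets. Of these, 35 were among the 12580 genes that passed the filter on low signal, which asked for a signal above the array median on at least 4 arrays. Psma8, a testis form of an alpha subunit, ranged from 4.49 to 5.86 and Psmb11, a thymus form of a beta subunit, from 4.24 to 5.08, against array medians of 5.69 to 5.80 on the log2 scale, and neither was tested. Psmc3ip has a matching symbol but encodes a meiotic recombination factor that is no part of the proteasome, so its values are given apart. The remaining 34 genes encode 31 subunits and 3 assembly chaperones, and all counts below are over these 34.

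Hybrid B6C3F1/Crl males (C57BL/6 and C3H/He parents) reached the laboratory at 29 to 32 days of age and had 5 days to settle. Treated mice drank water with phenobarbital at 0.05% (weight per volume), and the other mice are labelled only as controls. Liver RNA of 39 samples was hybridised to Affymetrix mouse arrays, with 4 controls on day 1 and 5 samples in each of the other 7 groups. The treatment text speaks of 28 days, so the durations used here are those on each sample's own label. No label names animals or numbers the replicates, so the replicate numbers below follow deposit order and only name arrays, and p-values measure only the spread between these samples, which may be technical. Whole liver mixes cell types, and fewer cells of a type cannot be told apart from less RNA per cell.

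The proteasome is built from a core particle and a regulatory particle. The core is a stack of alpha and beta rings, and the proteolytic sites sit on the beta subunits Psmb5, Psmb6 and Psmb7. The regulatory particle has a base, with a ring of ATPases that unfolds substrates, and a lid that removes their ubiquitin chains. When proteasome capacity is short, the transcription factor NRF1 (Nfe2l1) is known to raise subunit genes together through antioxidant response elements, and NRF2 (Nfe2l2) acts on similar elements. Phenobarbital acts on the liver through the receptor CAR, which induces cytochromes P450 such as Cyp2b10 and enlarges the liver.

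The samples had the marks of phenobarbital-treated liver. Cyp2b10 rose by 6.21, 6.36, 6.90 and 5.64 (log2) on days 1, 7, 28 and 91, and all 8 hepatocyte markers, Alb among them, lay above the array median on all 39 arrays. The extraction text also names kidney. Of the 5 kidney genes measured, Umod, Slc34a1 and Slc12a1 were above the array median on 0 arrays. Aqp2 was above it on 37 arrays and Kap on 23, with highest values of 6.27 and 7.96. Dividing cell markers moved with treatment on day 1, when 5 of 5 tested rose and their array mean was 7.42 to 9.13 in controls and 9.75 to 10.22 in treated livers, and 0 of 5 passed the test on later days. Of the other liver cells, 0 of 6 Kupffer cell markers passed on any day. Of 6 endothelial markers 1, 1, 3 and 2 were lower on days 1, 7, 28 and 91, with 0 higher. Of 5 stellate cell markers 0, 2, 3 and 2 were lower on these days, with 0 higher. Over all tested genes 16.7%, 11.4%, 18.1% and 16.1% were lower. The part of these cells in the results was not tested. In 1 treated array of day 1 (replicate 3) the exocrine pancreas genes averaged 11.03, against at most 5.61 on any other array, and in 1 treated array of day 7 (replicate 3) the neutrophil genes averaged 10.63, against at most 7.72. Without these arrays the counts below were 27 higher on day 1 and 12 higher on day 7. The hybridisation spike-ins and the 3′ minus 5′ difference of control probe sets, a sign of RNA integrity and labelling, also differed between groups and are given beside the days they touch.

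Day 1 brought the widest rise in proteasome transcripts. On that day 27 of the 34 genes rose and 0 fell (limma, Benjamini-Hochberg adjusted p under 0.05), where 15.8% of all tested genes rose and 16.7% fell. The median difference was 0.32 on the log2 scale, against 0.01 over all tested genes, and 33 of the 34 differences were above 0. In 25 of the 34 genes every treated array lay above every control, which held for 12.8% of all tested genes. Averaged over the 34 genes, the signal was 11.05 ± 0.04 (SD, n = 4) in controls and 11.35 ± 0.04 (SD, n = 5) in treated livers, a 1.23-fold difference. The count was 21 with the dividing cell marker mean as a covariate, and 0 genes fell in that fit too. That marker mean did not overlap between the groups on day 1, so the fit cannot separate it from treatment on that day.

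Fewer genes were called on the later days. On day 7, 14 genes rose and 0 fell, where 5.64% of all tested genes rose and 11.4% fell. The count was 5 in a fit of the day 7 arrays alone, all of them among the 14, and 4 with the spike-ins as a term, with 0 of the 14 among them. On day 28, 18 rose and 1 fell, against 11.2% and 18.1% of all tested genes. On day 91, 5 rose and 3 fell, against 4.62% and 16.1%, so the falls were below the background share. Median differences were 0.125, 0.14 and 0.01 (log2) on days 7, 28 and 91, where those of all tested genes were -0.05, -0.02 and -0.07. Every treated array lay above every control in 5, 8 and 2 of the 34 genes on days 7, 28 and 91 (3.61%, 5.8% and 2.54% of all tested genes), and below every control in 0, 0 and 1 (7.61%, 9.59% and 8.75%). Single arrays moved the smaller counts. Without control replicate 4 of day 28, 11 genes were higher on that day, and without control replicate 4 or treated replicate 3 of day 91, 2 were higher and 0 lower on day 91. After centring each array on its median, the day 91 split was 8 higher and 0 lower, and after quantile normalization 7 and 0.

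**Figure D1:**
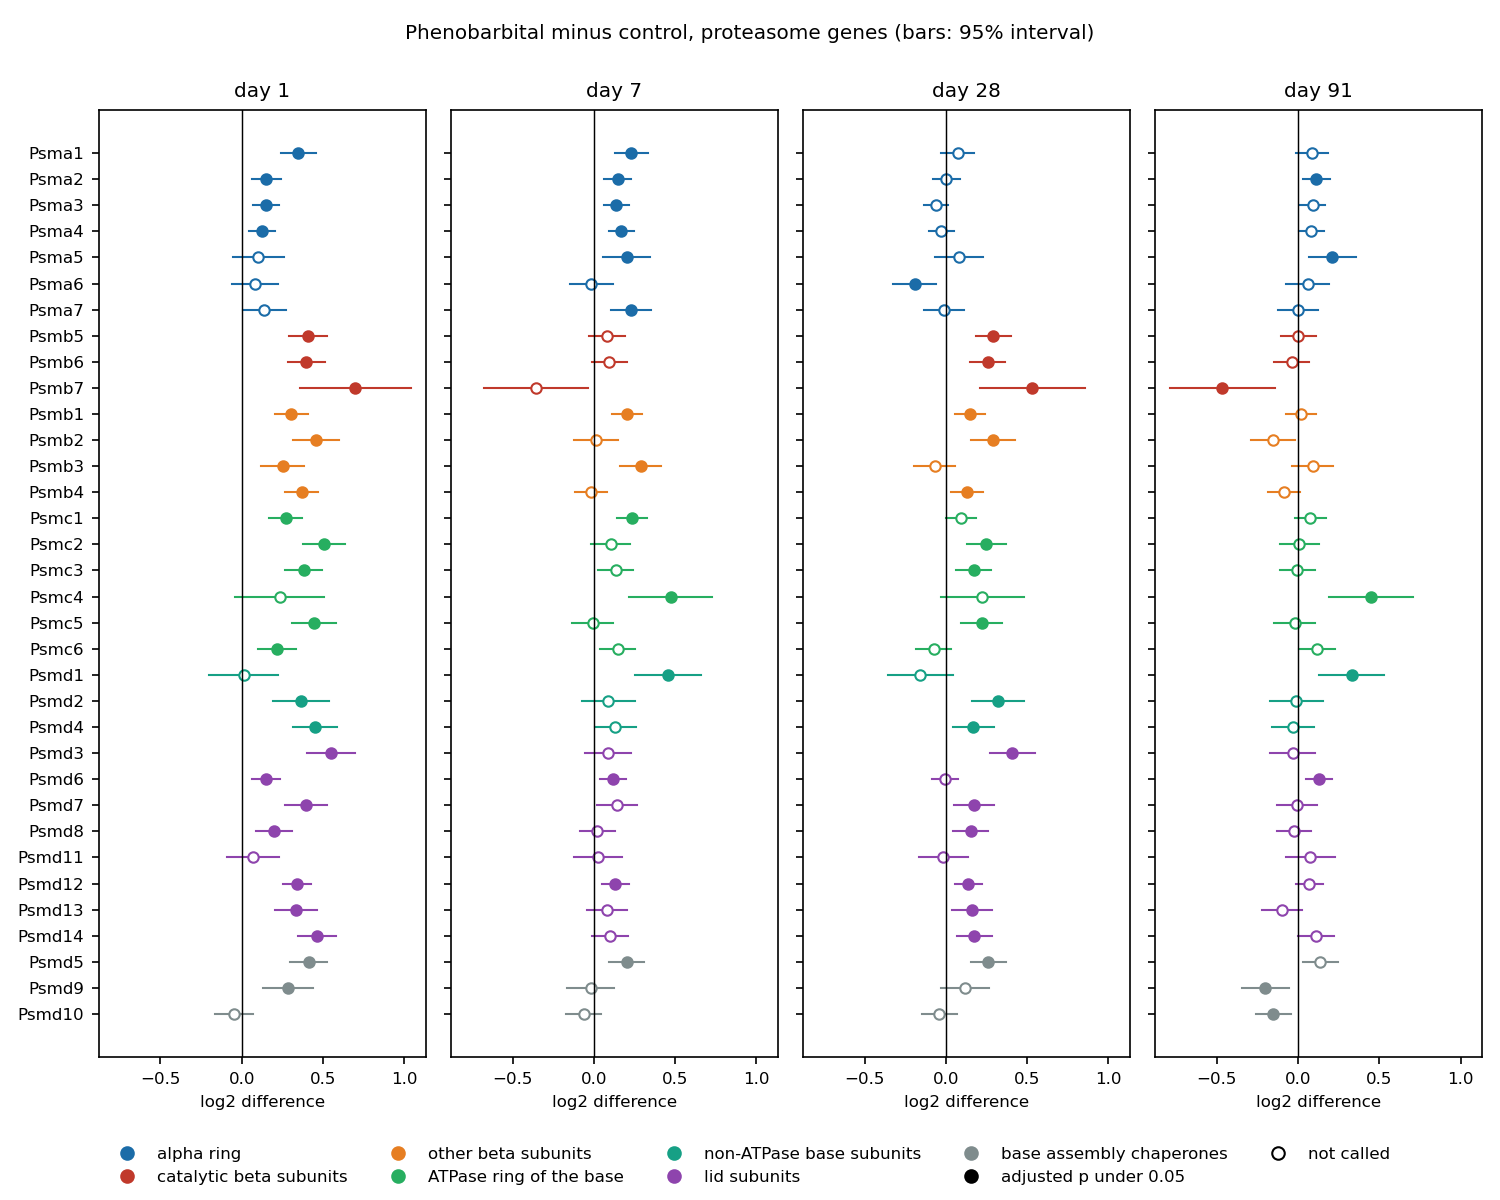
Phenobarbital minus control for the 34 tested proteasome genes on each day, as log2 difference on the horizontal axis with its 95% interval as a bar, coloured by the gene's place in the complex. Filled points passed an adjusted p of 0.05: 27 on day 1, 14 on day 7, 18 higher and 1 lower on day 28, and 5 higher and 3 lower on day 91.

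Array means over the 34 genes followed the same order. Day 7 controls spanned 11.05 to 11.10 and treated livers 11.10 to 11.23, and the lowest treated array lay just under the highest control (1.09-fold on average). Day 28 controls spanned 11.03 to 11.13 and treated livers 11.15 to 11.23, with no overlap. Day 91 controls spanned 11.05 to 11.12 and treated livers 11.09 to 11.15, with overlap, and a difference of only 1.02-fold.

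**Figure D2:**
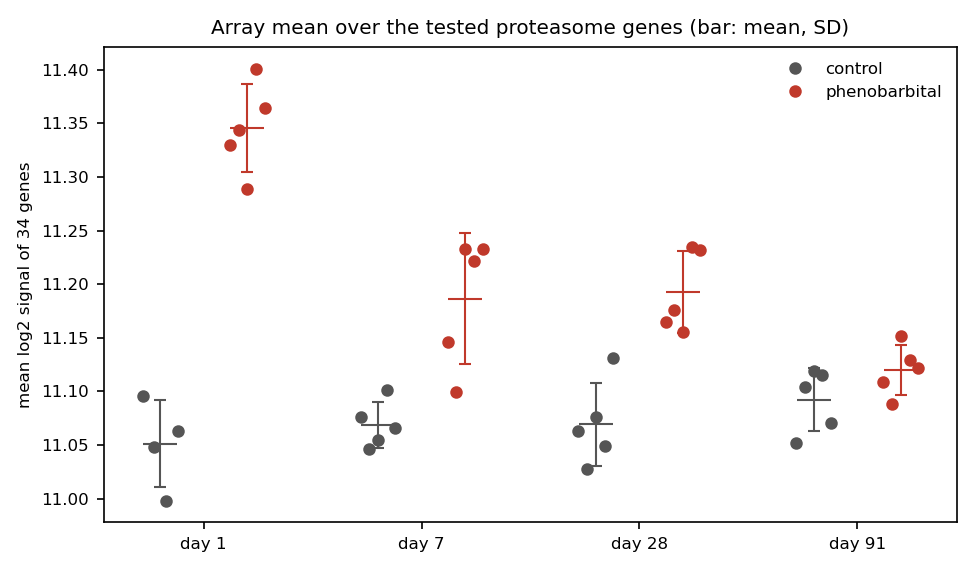
Mean log2 signal of the 34 genes on each of the 39 arrays by day, controls in grey and treated livers in red, with the group mean and SD as bars. Treated arrays lie above all controls on days 1 and 28, and the groups overlap on days 7 and 91.

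The 3 catalytic subunits rose on days 1 and 28 and were not called higher on the other days, except that Psmb5 passed on day 7 in a fit with the hybridisation spike-ins as a term (0.23, adjusted p = 0.0306). Psmb5 carries the chymotrypsin-like site, the target of the drug bortezomib. On day 1, Psmb5 read 11.39, 11.34, 11.30 and 11.35 in controls and 11.86, 11.80, 11.60, 11.79 and 11.71 in treated livers. Every treated array was above every control, and the difference was 0.41 ± 0.06 (SE, adjusted p = 1.87e-06). On day 28 the controls read 11.41, 11.33, 11.34, 11.29 and 11.59 and the treated livers 11.62, 11.70, 11.69, 11.71 and 11.70. Again the groups did not overlap, although control replicate 5 came close, and Psmb5 was 1.22-fold higher (adjusted p = 0.000137).

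Between these days Psmb5 did not separate the groups. Its day 7 controls read 11.63, 11.49, 11.63, 11.52 and 11.56 and its treated livers 11.54, 11.61, 11.67, 11.67 and 11.73, a difference of 0.08 ± 0.05 (adjusted p = 0.31). Its day 91 controls read 11.35, 11.60, 11.51, 11.59 and 11.64 and its treated livers 11.55, 11.49, 11.62, 11.53 and 11.48, a difference of 0.00 ± 0.05 (adjusted p = 0.99). The day 7 controls were higher than the day 1 controls by 0.22 ± 0.06 (adjusted p = 0.00351), so the level that treated livers were set against had moved. These day 7 controls also had the lowest spike-in mean of any group (9.96), and its part in this step was not tested.

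Psmb6, the caspase-like subunit, had nearly the same course. On day 1 it read 11.38, 11.36, 11.25 and 11.34 in controls and 11.63, 11.80, 11.64, 11.86 and 11.73 in treated livers. There was no overlap, and the difference was 0.40 ± 0.06 (adjusted p = 2.49e-06). On day 28 the controls read 11.43, 11.36, 11.53, 11.41 and 11.74 and the treated livers 11.69, 11.79, 11.69, 11.86 and 11.72. Control replicate 5 lay above 3 treated arrays, and the difference was 0.26 ± 0.05 (adjusted p = 0.000488). On day 7 it read 11.53, 11.56, 11.64, 11.60 and 11.61 in controls and 11.63, 11.62, 11.77, 11.68 and 11.72 in treated livers (0.09 ± 0.05, adjusted p = 0.229), and on day 91 the difference was -0.04 ± 0.05 (adjusted p = 0.655).

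Psmb7, the trypsin-like subunit, had the largest difference of the 34 genes on days 1, 28 and 91. On day 1 it read 10.22, 10.11, 10.08 and 10.24 in controls and 11.35, 10.82, 10.31, 11.03 and 10.81 in treated livers. All treated arrays were higher, by 1.62-fold on average (0.70 ± 0.17, adjusted p = 0.00163). On day 28 the controls read 10.29, 10.17, 10.27, 10.36 and 10.63 and the treated livers 10.48, 11.05, 10.62, 11.22 and 11.01, with overlap through control replicate 5, and the difference was 0.53 ± 0.16 (adjusted p = 0.011).

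On the other days Psmb7 was lower in treated livers or not called. Its day 7 controls were the highest of any group, at 11.61, 11.38, 11.06, 11.39 and 10.87, and the treated livers read 10.78, 11.02, 10.91, 10.90 and 10.93 (-0.36 ± 0.16, adjusted p = 0.118). On day 91 the controls split into 10.30 and 10.17 on 2 arrays and 10.91, 11.02 and 10.99 on 3, while the treated livers stayed at 10.21, 10.13, 10.22, 10.31 and 10.19. That difference was -0.47 ± 0.16 (adjusted p = 0.034). Much of the course of Psmb7 lay in the controls, which rose by 1.10 ± 0.17 from day 1 to day 7 and fell by 0.92 from day 7 to day 28, both called. The day 7 controls also had the lowest spike-in mean of any group (9.96), and its part in these steps was not tested. With the spike-ins as a term in the fit, Psmb7 differed by 0.06 on day 7 (adjusted p = 0.898). On day 91 it differed by -0.36 in that fit (adjusted p = 0.0947), no longer called. Treated livers of days 1 and 7 differed by 0.04.

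**Figure D3:**
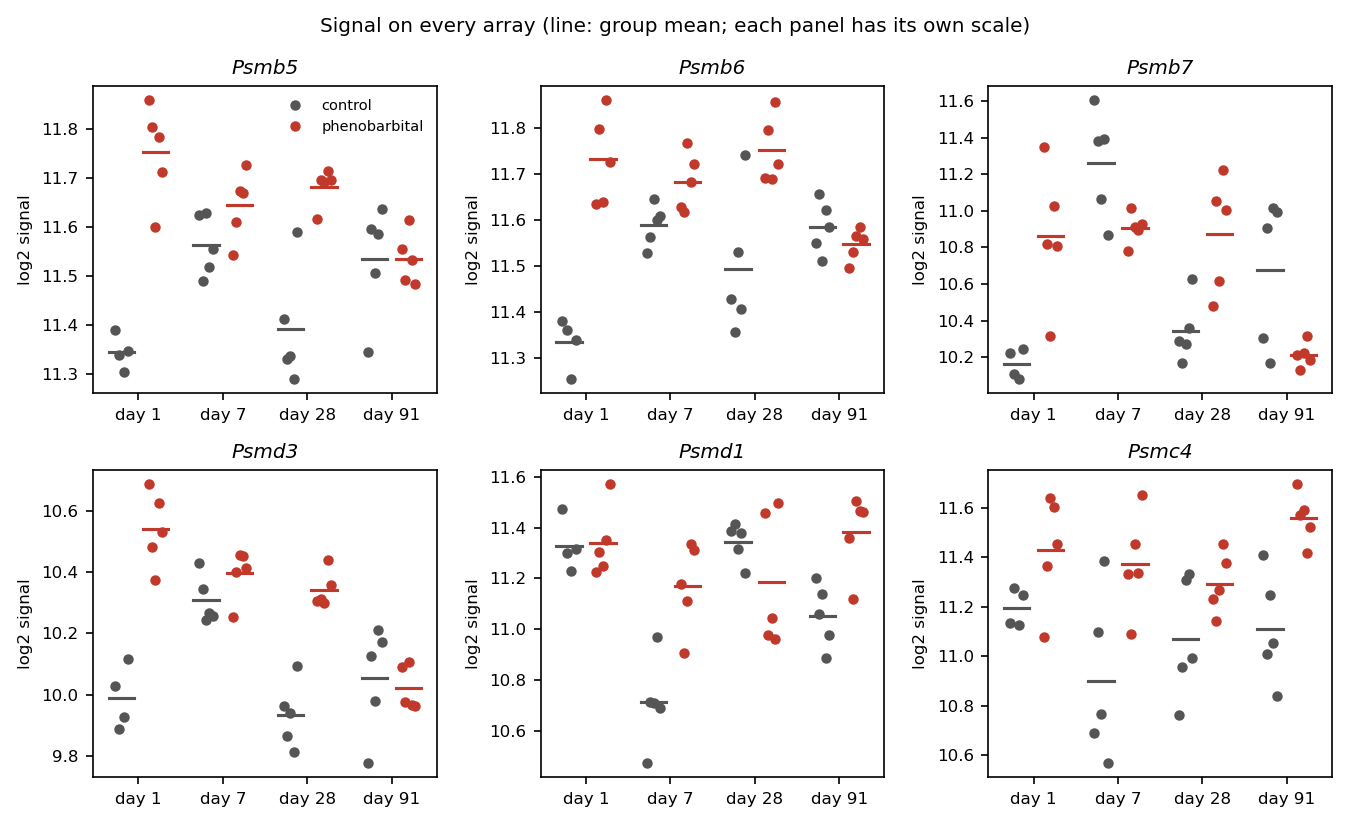
Log2 signal of Psmb5, Psmb6, Psmb7, Psmd3, Psmd1 and Psmc4 on every array by day, controls in grey and treated livers in red, with lines at the group means and a separate scale in each panel. Psmb5 and Psmd3 separate the groups on days 1 and 28, while Psmd1 has its low controls on day 7.

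Promoters of the catalytic genes Psmb5 and Psmb6 and of the assembly chaperone Psmd9 are shown because they hold, on the gene's own strand, the letters TGACNNNGC, the core of the antioxidant response element named above. The RefSeq promoter table (GRCm38.p6) has an entry for 28 of the 34 genes, and the 250 bases before each start were searched on both strands. Psmb1, Psmb2, Psmb7, Psmc3, Psmd3 and Psmd7 have no entry there. A match was found in 5 of the 28 genes (17.9%), against 11.5% of all 27025 genes in the table and 10.2% of its 32851 promoters. The 5 are Psmb5, Psmb6, Psmd9, Psmc6 and Psmd12, with the match beginning 47, 9, 31, 227 and 247 bases before the start. Those of Psmc6 and Psmd12 are on the opposite strand. A match describes letters, and was not tested as a site. The sequences below run 5′ to 3′ on the gene's strand and end just before its start, with the matching letters in capitals, at chr14:54617996-54618245 (minus strand) for Psmb5, chr11:70525107-70525356 (plus) for Psmb6 and chr5:123227940-123228189 (plus) for Psmd9.
Psmb5: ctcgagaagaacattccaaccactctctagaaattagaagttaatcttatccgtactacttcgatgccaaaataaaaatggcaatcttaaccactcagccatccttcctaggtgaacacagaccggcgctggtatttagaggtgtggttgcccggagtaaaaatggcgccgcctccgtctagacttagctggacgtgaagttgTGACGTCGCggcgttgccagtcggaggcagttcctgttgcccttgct
Psmb6: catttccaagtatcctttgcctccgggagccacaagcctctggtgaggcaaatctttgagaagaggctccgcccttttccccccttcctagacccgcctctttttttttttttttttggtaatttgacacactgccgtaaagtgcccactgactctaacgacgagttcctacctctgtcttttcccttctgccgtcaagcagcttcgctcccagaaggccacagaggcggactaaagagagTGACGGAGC
Psmd9: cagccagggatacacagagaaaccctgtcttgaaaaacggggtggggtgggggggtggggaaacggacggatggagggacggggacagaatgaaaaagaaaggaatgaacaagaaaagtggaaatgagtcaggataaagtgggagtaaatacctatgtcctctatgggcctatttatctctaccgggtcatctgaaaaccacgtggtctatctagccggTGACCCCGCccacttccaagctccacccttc
All 5 genes with a match rose on day 1, with a median difference of 0.34 (log2), and so did 16 of the 23 without a match, with a median of 0.23. The 6 genes without an entry all rose on day 1 as well and are in neither group. Psmb7 and Psmd3, with the largest rises of that day, are among them. Whether a match goes with a larger rise was not tested.

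The other beta subunits, which hold the core together without cutting, all rose on day 1. Psmb2 read 11.04, 10.96, 10.91 and 10.91 in day 1 controls and 11.55, 11.50, 11.28, 11.40 and 11.31 in treated livers, with no overlap (0.46 ± 0.07, adjusted p = 8.03e-06). It was 1.22-fold higher on day 28 (adjusted p = 0.00125), where its differences on days 7 and 91 were 0.01 and -0.15 and did not pass the test. Psmb4 read 12.55, 12.45, 12.40 and 12.39 against 12.80, 12.88, 12.75, 12.81 and 12.83 on day 1, also without overlap (0.37 ± 0.05, adjusted p = 1.62e-06). The second brightest probe set of Psmb4 showed no such rise (0.00, adjusted p = 0.995). By the brightest probe set, the later differences of Psmb4 were -0.02, 0.13 and -0.08, of which day 28 passed (adjusted p = 0.0373). Psmb2 and Psmb4 had the smallest adjusted p of the 34 genes in the test of equal effects on the 4 days (6.82e-05 and 7.04e-05).

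Psmb3 and Psmb1 rose on day 7 as well. Psmb3 read 11.57, 11.28, 11.37, 11.37 and 11.53 in day 7 controls and 11.68, 11.71, 11.68, 11.76 and 11.73 in treated livers, without overlap (0.29 ± 0.06, adjusted p = 0.00132). On day 28 its difference was -0.07, but its other probe set rose by 0.19 on that day (adjusted p = 0.0144) and by 0.05 on day 7 (adjusted p = 0.661), so the day of the rise depends on the probe set. Psmb1 rose on days 1, 7 and 28, by 0.31, 0.20 and 0.15, and on each of these days every treated array was above every control.

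The alpha ring, which gates the entrance of the core, was called in more genes on day 7 than on day 1, by the brightest probe sets. Which day had more calls depends on the probe set, since the 3 genes not called on day 1, Psma5, Psma6 and Psma7, each had another probe set that was higher on that day. On day 1, 4 of its 7 tested genes rose (median 0.14), and on day 7 6 of 7 rose (median 0.17). On day 28 0 rose and 1 fell (median -0.01), and on day 91 2 rose (median 0.09). Of all tested genes 15.8%, 5.64%, 11.2% and 4.62% rose on these days, and 18.1% fell on day 28. Psma1 had the largest rise of the ring on day 1 (0.35 ± 0.05, adjusted p = 6.64e-06). Psma2 rose on days 1, 7 and 91 by 0.15, 0.15 and 0.11. On day 91 its controls read 11.63, 11.68, 11.71, 11.59 and 11.53 and its treated livers 11.74, 11.73, 11.77, 11.73 and 11.74, without overlap. Psma5 passed on days 7 and 91 (0.20 and 0.21, adjusted p = 0.0498 and 0.034), with controls of 11.78, 11.75, 11.89, 11.58 and 11.54 against 11.97, 11.97, 11.90, 11.88 and 11.90 on day 91, where the highest control lay above 1 treated array. The second brightest probe set of Psma5 did not pass on either day (0.15 and 0.10, adjusted p = 0.0984 and 0.292).

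Psma6 was the only one of the 34 genes to fall on day 28. Its controls read 12.33, 12.28, 12.34, 12.37 and 12.12 and its treated livers 11.96, 12.04, 12.18, 12.22 and 12.05, with overlap through control replicate 5 (-0.19 ± 0.06, adjusted p = 0.0237). The next brightest probe set of Psma6 gave -0.04 on that day (adjusted p = 0.558), and a dim one with a mean of 6.27 gave -0.18 (adjusted p = 0.0424).

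The ATPase ring rose in 5 of 6 genes on day 1, 2 on day 7, 3 on day 28 and 1 on day 91. Of all tested genes 15.8%, 5.64%, 11.2% and 4.62% rose on these days. Psmc2 led it on day 1, with 11.57, 11.44, 11.40 and 11.58 in controls and 11.97, 11.98, 11.96, 12.10 and 12.02 in treated livers. The groups were well apart, and the difference was 0.51 ± 0.06 (adjusted p = 2.88e-07). On day 28 its controls read 11.53, 11.49, 11.52, 11.44 and 11.81 and its treated livers 11.85, 11.78, 11.76, 11.85 and 11.81, so that control replicate 5 alone reached the treated range (0.25 ± 0.06, adjusted p = 0.002). Its differences were 0.10 and 0.01 on days 7 and 91, neither called. The second brightest probe set of Psmc2 also rose on day 1 (0.33, adjusted p = 8.19e-06 over all probe sets), but passed on day 7 (0.21, 0.00245) and not on day 28 (0.05, 0.438).

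Psmc4, by its brightest probe set, was called on days 7 and 91 only. On day 7 its controls scattered over 10.69, 11.10, 10.76, 11.38 and 10.57 and its treated livers read 11.33, 11.09, 11.45, 11.34 and 11.65 (0.47 ± 0.13, adjusted p = 0.00891). On day 91 the controls read 11.41, 11.01, 11.25, 11.05 and 10.84 and the treated livers 11.70, 11.57, 11.59, 11.42 and 11.52, without overlap (0.45 ± 0.13, adjusted p = 0.0115). A test of equal effects on the 4 days did not pass for Psmc4 (adjusted p = 0.468). Its other probe set gave the opposite choice of days: 0.63 on day 1 (adjusted p = 1.08e-06), 0.19 on day 7 (0.101), 0.39 on day 28 (0.000343) and 0.13 on day 91 (0.271).

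Among the base subunits that are no ATPases, the scaffold Psmd2 and the ubiquitin receptor Psmd4 rose on days 1 and 28, and the scaffold Psmd1 on days 7 and 91. Psmd2 read 11.29, 11.34, 11.23 and 11.09 in day 1 controls and 11.54, 11.70, 11.57, 11.55 and 11.65 in treated livers, without overlap (0.36 ± 0.08, adjusted p = 0.00113). It was 1.25-fold higher on day 28 (adjusted p = 0.0028) and differed by 0.09 and -0.01 on days 7 and 91.

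Psmd1 was called on the other days. On day 1 its difference was 0.01 ± 0.11 (adjusted p = 0.947). On day 7 its controls read 10.47, 10.71, 10.71, 10.97 and 10.69 and its treated livers 11.18, 10.90, 11.11, 11.34 and 11.31, where 1 control lay above 1 treated array (0.46 ± 0.10, adjusted p = 0.00153). On day 91 the controls read 11.20, 11.06, 11.14, 10.89 and 10.98 and the treated livers 11.36, 11.12, 11.50, 11.47 and 11.46, with treated replicate 2 inside the control range (0.33 ± 0.10, adjusted p = 0.0177). The Psmd1 effect of day 7 exceeded that of day 1 by 0.45 ± 0.15 (adjusted p = 0.0259), the only one of the 34 to do so past the threshold. Here too the controls moved: Psmd1 fell by 0.62 from day 1 to day 7 in controls (adjusted p = 0.000103) and rose by 0.63 from day 7 to day 28 (adjusted p = 6.07e-06). Both steps involve the day 7 controls, the group with the lowest spike-in mean.

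The lid, which carries the deubiquitinase Psmd14, rose in 7 of 8 genes on day 1, 2 on day 7, 6 on day 28 and 1 on day 91. The shares of all tested genes were 15.8%, 5.64%, 11.2% and 4.62%. Psmd3 had the largest rise of the lid. On day 1 it read 10.03, 9.89, 9.93 and 10.12 in controls and 10.69, 10.48, 10.37, 10.63 and 10.53 in treated livers. On day 28 it read 9.96, 9.87, 9.94, 9.81 and 10.09 against 10.30, 10.31, 10.30, 10.44 and 10.36. The groups did not overlap on either day, and the differences were 0.55 ± 0.07 (adjusted p = 8.55e-07) and 0.41 ± 0.07 (adjusted p = 4.53e-05). On days 7 and 91 they were 0.09 and -0.03 (adjusted p = 0.407 and 0.777).

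Psmd14 itself rose by 0.46 ± 0.06 on day 1 and by 0.18 ± 0.05 on day 28, without overlap on either day. Psmd7, Psmd8, Psmd12 and Psmd13 were also called on both days, and Psmd12 on day 7 besides. Psmd6 rose on days 1, 7 and 91 by 0.15, 0.12 and 0.13, a course shared in these calls with Psma2. By the brightest probe sets, Psmd11 was the only one of the 34 genes called on no day (differences of 0.07, 0.02, -0.02 and 0.08), where 38.8% of all tested genes were called on no day.

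The 3 chaperones that assemble the base did not move together. Psmd5 rose on days 1, 7 and 28, by 0.41, 0.20 and 0.26. Psmd9 read 8.86, 8.83, 8.80 and 8.62 in day 1 controls and 9.24, 9.22, 8.93, 8.89 and 9.02 in treated livers, without overlap (0.29 ± 0.08, adjusted p = 0.00405). That call was lost with the dividing cell marker mean as a term (0.18, adjusted p = 0.134) and by the second brightest probe set (0.06, 0.664). On day 91 it read 8.86, 8.88, 9.08, 9.11 and 8.96 in controls and 8.78, 8.77, 8.74, 8.80 and 8.79 in treated livers, every one of them below every control (-0.20 ± 0.07, adjusted p = 0.0421), as in 8.75% of all tested genes. Psmd10, also known as the oncoprotein gankyrin, was not called before day 91, when it read 8.25, 8.38, 8.48, 8.33 and 8.29 against 8.08, 8.24, 8.12, 8.32 and 8.22 (-0.15 ± 0.05, adjusted p = 0.0428). Its groups overlapped.

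Psmc3ip, outside the complex, rose by 0.67 ± 0.10 on day 1 (adjusted p = 2.99e-06) and fell by 0.26 on day 91 (adjusted p = 0.0406). It did not pass on days 7 and 28 (0.07 and 0.10).

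The genes called on the different days were nested in pairs. Each of the 18 genes higher on day 28 was among the 27 of day 1, and 6.36% of all tested genes were higher on both days. Each of the 5 of day 91 was among the 14 of day 7 (2.15% of all tested genes). Days 1 and 7 shared 10 genes, of 27 and 14 (2.38%), and the 4 of day 7 outside the day 1 list were Psma5, Psma7, Psmc4 and Psmd1. The second pair was lost with the spike-ins as a term, when the 4 genes of day 7 were all among those of day 1 and the 3 of day 91 (Psmc4, Psmd1 and Psmd6) were not among the 4. No gene of the 34 was higher on all 4 days (1.07% of all tested genes).

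As a description over the 34 genes, which share arrays within a day but not between days, the differences of day 1 and day 28 had r = 0.87, and those of day 7 and day 91 had r = 0.88. Over all 12580 genes these were 0.66 and 0.64. Between the pairs the sign turned: r was -0.37 for days 1 and 7, -0.49 for days 1 and 91, -0.38 for days 7 and 28, and -0.47 for days 28 and 91, where all tested genes gave 0.36, 0.17, 0.49 and 0.40. Without Psmb7, the positive values were 0.84 and 0.81 and the negative ones ran from -0.33 to -0.17. The spike-in mean changed direction in the same pairs. It was 10.94 in controls and 10.69 in treated livers on day 1, and 11.21 and 10.86 on day 28. On day 7 it was 9.96 in controls and 10.85 in treated livers, and on day 91 10.90 and 11.125. The groups overlapped on days 28 and 91. Its part in the pairing was not tested. For Psmb3, Psmc2 and Psmc4 the days called also depended on the probe set.

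**Figure D4:**
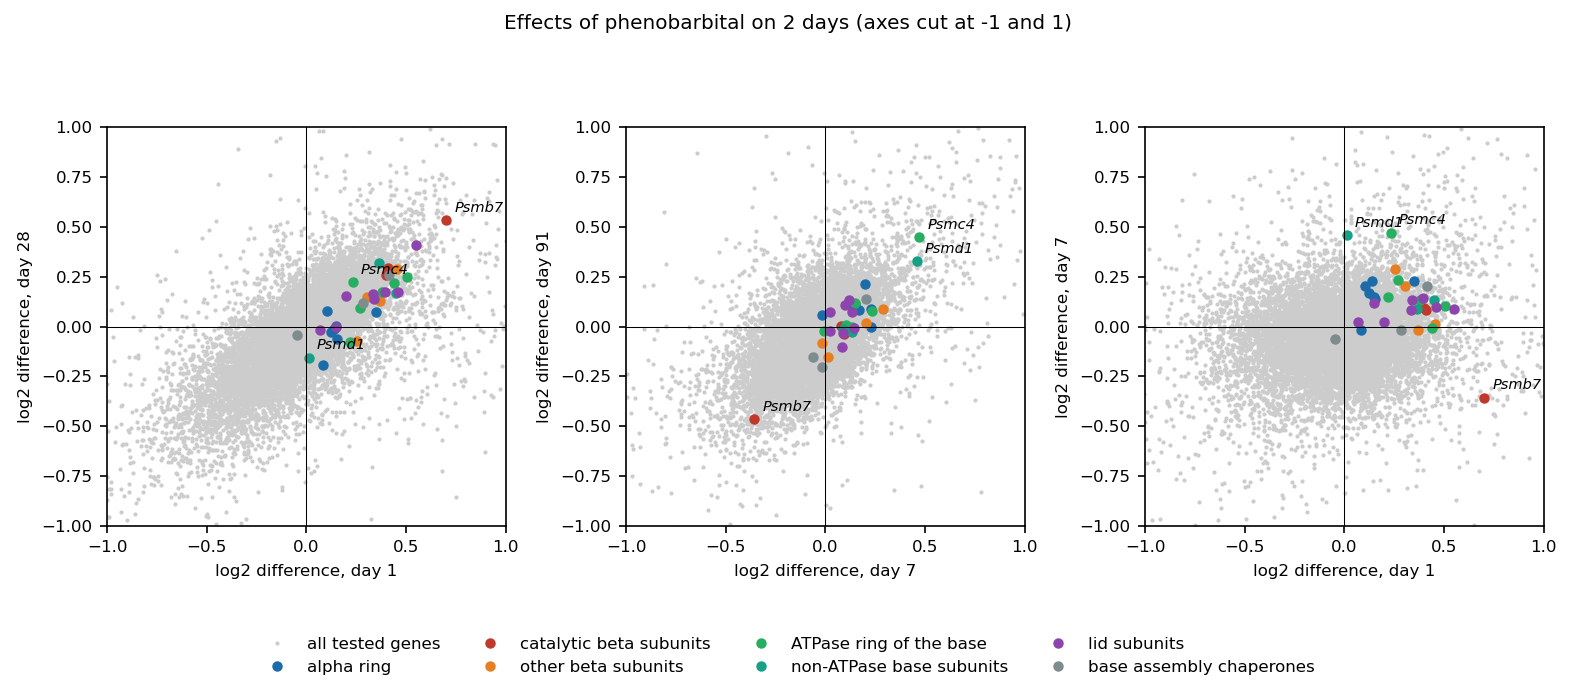
Log2 difference on 1 day against that on another, for all 12580 tested genes in grey and the 34 proteasome genes in colour by their place in the complex, with both axes ending at -1 and 1. The coloured points rise along the diagonal for days 1 and 28 and for days 7 and 91, and Psmb7 and Psmd1 lie off it in the plot of day 7 against day 1.

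Tested directly, the effect differed between days in 25 of the 34 genes (moderated F test of equal effects, adjusted p under 0.05), against 35.1% of all tested genes. From day 1 to day 7 the effect became smaller in 16 genes and larger in 1 (13.1% and 8.16% of all tested genes). From day 1 to day 91 it became smaller in 21 and larger in 0 (19.4% and 11.1%). Days 1 and 28 differed in 6 genes, all smaller on day 28 (2.68%, with 0.572% of all tested genes larger): Psmb3, Psmc6, Psmd14, Psma1, Psmb4 and Psma3. From day 28 to day 91 the effect became smaller in 11 genes and larger in 3 (12.5% and 9.13%), and from day 7 to day 28 smaller in 5 and larger in 3 (5.78% and 5.98%). Days 7 and 91 differed in 0 of the 34, against 0.437% lower and 0.286% higher of all tested genes.

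Levels were also compared between days, within treated livers and within controls. The days are separate groups of samples, so steps between them cannot be told apart from age or any batch of arrays. In treated livers 16 of the 34 genes fell from day 1 to day 7 and 0 rose (16.6% and 9.8% of all tested genes fell and rose), and from day 28 to day 91 9 fell and 0 rose (7.97% and 9.24%). From day 7 to day 28 1 fell and 2 rose in treated livers (11.9% and 9.51%). In controls 7 rose and 6 fell from day 1 to day 7 (18.9% and 16.4%), and 9 rose and 8 fell from day 7 to day 28 (19.8% and 26.5%), shares near those of all tested genes. From day 28 to day 91 0 rose and 2 fell in controls (8.43% and 5.13%). Psmd5 fell by 0.38 from day 1 to day 7 in treated livers (adjusted p = 6.82e-07), and Psmd14 by 0.39 (adjusted p = 8.74e-07). From day 28 to day 91 Psmb7 fell by 0.66 in treated livers and Psmd3 by 0.32 (adjusted p = 0.00622 and 0.00306).

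Control probe sets moved along with several of these groups. On day 7 the spike-in mean was 9.58 to 10.27 in controls and 10.76 to 10.97 in treated livers, without overlap, and in a fit with that mean as a term 4 rather than 14 genes were higher on that day. None of the 14 was among these 4, which were Psmb5 (0.23, adjusted p = 0.0306), Psmc2 (0.30, 0.00778), Psmd3 (0.29, 0.0338) and Psmd4, while Psmc4, Psmd1, Psmb3 and Psma5 were at 0.23, 0.30, 0.05 and 0.14 and no longer called. On day 28 the 3′ minus 5′ difference was 0.52 to 0.81 in controls and 0.42 to 0.50 in treated livers, again without overlap, and with it as a covariate 3 rather than 18 genes were higher. Psmb5 and Psmd3 kept an adjusted p under 0.05 there (0.16 and 0.25, adjusted p = 0.048 and 0.0204), and Psmb7 did not (0.31, adjusted p = 0.318). Where groups do not overlap in such a measure, it cannot be told apart from treatment. On day 1 the spike-in mean was 10.91 to 10.97 in controls against 10.55 to 10.85 in treated livers, also without overlap, and the 3′ minus 5′ difference 0.46 to 0.58 against 0.40 to 0.51, with overlap. With either as a covariate 27 genes were higher, the same genes as without it. On day 28 the spike-in mean was 10.86 to 11.49 in controls and 10.75 to 10.93 in treated livers, with overlap. On day 91 it was 10.37 to 11.77 in controls and 10.88 to 11.28 in treated livers, also with overlap. With the spike-ins as a term fewer genes were called on both days, with counts in the closing section.

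In the day 28 controls, replicate 5 had the highest value in Psmb5, Psmb6, Psmb7, Psmb2, Psmb4, Psmc2, Psmd2 and Psmd3. Without that array the day 28 count stayed at 18.

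Other probe sets of the same genes bear on the day 1 result, since 7 genes were not called: Psma5, Psma6, Psma7, Psmc4, Psmd1, Psmd10 and Psmd11. For 5 of them another probe set was higher on day 1, by 0.41 for Psma5 (adjusted p = 3.18e-05), 0.14 for Psma6 (adjusted p = 0.0162), 0.36 for Psma7 (1.43e-05), 0.63 for Psmc4 (1.08e-06) and 0.23 for Psmd11 (0.0244), adjusted over all probe sets, and Psmd1 and Psmd10 have 1 probe set each. Altogether 17 genes had 28 further probe sets that passed the filter, of which 12, 4, 7 and 3 were higher and 0, 1, 1 and 1 lower on days 1, 7, 28 and 91. These 28 had the sign of the brightest probe set in 21, 19, 18 and 20 cases.

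The helpers of core assembly also rose on day 1. All 5 passed, against 15.8% of all tested genes. Psmg4 rose by 0.54 (adjusted p = 4.56e-06), Psmg2 by 0.32 (0.000973) and Psmg1 by 0.23 (0.000144). Pomp, the maturation factor, rose by 0.22 (adjusted p = 0.000551) and Psmg3 by 0.21 (0.0434). Days 7, 28 and 91 had 1, 1 and 0 higher (5.64%, 11.2% and 4.62% of all tested genes). They had 1, 0 and 1 lower (11.4%, 18.1% and 16.1%). Of the 4 tested activators and inhibitors, Psme3 and Psmf1 rose on day 1 (0.34 and 0.46), and Psme4 fell (-0.17, adjusted p = 0.0255). Psme4 went the other way on days 7 and 91 (0.17 and 0.16, adjusted p = 0.0411 and 0.0448). Psme1 rose on day 7 (0.27, adjusted p = 0.0173) and Psmf1 again on day 28 (0.49, 0.00102). The immunoproteasome subunits Psmb8, Psmb9 and Psmb10, which interferon puts in place of the catalytic subunits, passed the test on no day. On day 1 Psmb10 differed by 0.19 (adjusted p = 0.38) and Psmb9 by -0.07 (0.868).

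Substrate delivery genes had 2 of 10 higher and 0 lower on day 1, where 15.8% of all tested genes were higher and 16.7% lower, so the share that rose was near the background. Of these 10 tested receptors, shuttles and deubiquitinases, Usp14, which trims ubiquitin at the proteasome, rose on day 1 (0.50, adjusted p = 0.000128) and day 28 (0.38, 0.00149), and Rad23b on days 1 and 7 (0.17 and 0.14). On day 7 Ecpas also rose (0.30), and Ubqln4 and Uchl5 fell (-0.42 and -0.25). In the p97 segregase list, 4 of 7 rose on day 1 and 1 fell (15.8% and 16.7% of all tested genes): its adaptor Nsfl1c by 0.54 (adjusted p = 4.79e-09), Nploc4 by 0.37, Ufd1 by 0.22 and Faf1 by 0.20 rose, and Ngly1 fell by 0.20. Vcp, the segregase itself, was not called on any day (0.09 on day 1). Of the ubiquitin and E1 genes only Uba6 was tested, and it was lower on days 1, 7 and 28 (-0.32, -0.29 and -0.21).

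Genes of degradation from the endoplasmic reticulum had 1 of 9 higher and 2 lower on day 1, near the shares of all tested genes (15.8% and 16.7%). Derl1 rose by 0.17, Derl2 fell by 0.27 and Herpud1 fell by 0.84 (adjusted p = 0.0492, 0.000127 and 0.02). The COP9 signalosome, a relative of the lid, had 6 of 9 genes higher on day 1 (15.8% of all tested genes), with Cops8 at 0.27, Cops7a at 0.25, Cops5 at 0.19 and Cops3 at 0.18. Cytosolic chaperones had 7 of 17 higher on day 1 and 10 of 17 on day 28 (15.8% and 11.2% of all tested genes), when Hspa1a rose by 2.27, Bag3 by 1.15, Cct7 by 0.47 and Cct3 by 0.30. Only 1 of 17 passed on day 7, a rise, where 5.64% of all tested genes rose, so that share was near the background. On day 91 Hsp90aa1, Cct3, Cct6a, Tcp1 and Cct2 were higher (0.36, 0.31, 0.23, 0.22 and 0.17), where 4.62% of all tested genes were. MHC class I genes had 0 of 6 higher on any day, and B2m was lower on day 1 (-0.18, adjusted p = 0.00931).

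Of 7 tested regulators of NRF1 and NRF2 signalling, only Keap1, the inhibitor of NRF2, rose on day 1 (0.17, adjusted p = 0.0371). Nfe2l1 differed by 0.21 on day 1 (adjusted p = 0.0527), and fell on day 91 (-0.30, adjusted p = 0.00814). Nfe2l2 rose on day 7 alone (0.43, adjusted p = 0.0117), when its partner Mafg fell (-0.42, 0.00861). Among 12 antioxidant genes known as NRF2 targets, 5 rose and 1 fell on day 1 (15.8% and 16.7% of all tested genes): Srxn1 by 1.55, Nqo1 2.84-fold, Txnrd1 by 0.63, Pgd by 0.62 and Gsr by 0.53 rose, and Gclc fell by 0.48. On days 7, 28 and 91, 5, 4 and 2 of the 12 were higher (5.64%, 11.2% and 4.62% of all tested genes). On these days 0, 1 and 1 were lower (11.4%, 18.1% and 16.1%).

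**Figure D5:**
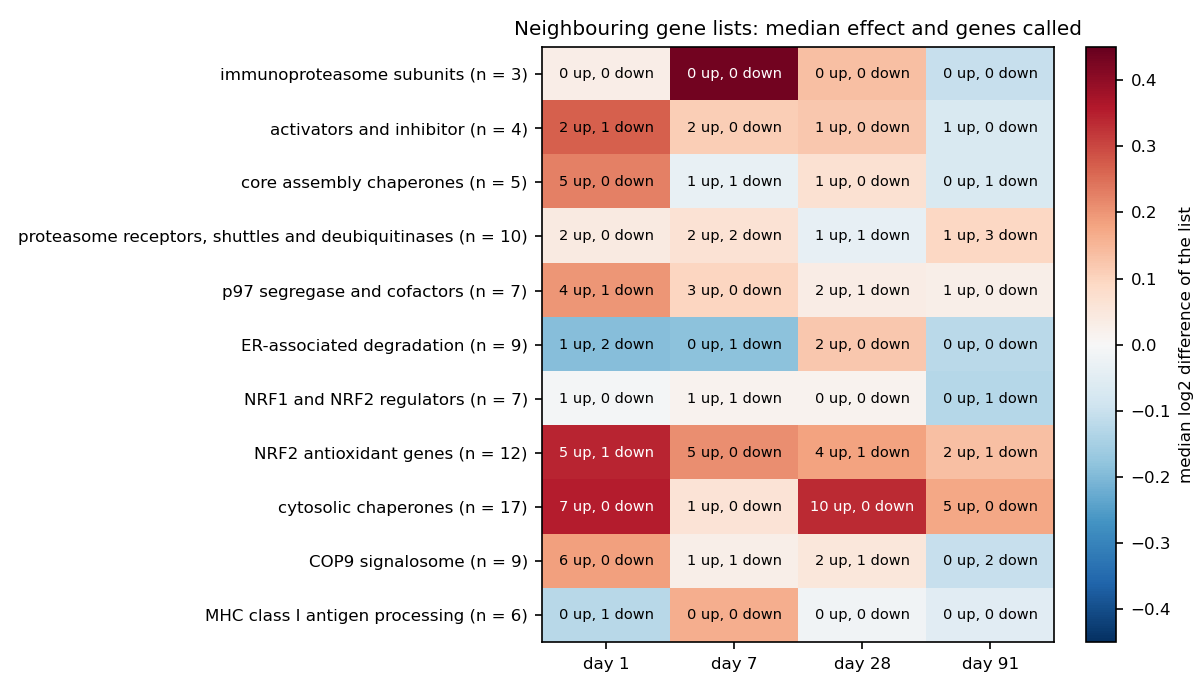
Lists of genes that work with the proteasome, in rows with the number tested, against day in columns. Colour gives the median log2 difference of the list and the words give how many of its genes rose or fell at an adjusted p under 0.05, with 5 of 5 core assembly chaperones and 7 of 17 cytosolic chaperones up on day 1.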

How the data were processed

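Labelled RNA of 39 liver samples was hybridised to Affymetrix mouse arrays, and the GCOS software is named in the submitters' processing notes. The deposited values are on the log2 scale, per the values themselves, with normalized array medians of 5.69 to 5.80; the method of summarisation and normalization is not given in the sources used here. The members and the gene lists were chosen with earlier results of these data known. Platform annotation, which can be old, gave 1 gene symbol to 34945 of 45101 probe sets, several to 932 and none to 9160, and 64 are controls; probe sets with several symbols named no gene. The probe set with the highest mean stood for a gene, and genes above the array median (50th percentile) on at least 4 arrays were tested. Groups came from the sample labels. A limma 3.58.1 model (R 4.3.3; lmFit with a mean per group over all 39 arrays, eBayes with trend, 31 residual and 4.46 prior degrees of freedom) gave each day's difference, the differences between days and an F test, 2-sided, with Benjamini-Hochberg adjustment over 12580 genes within each comparison and a threshold of 0.05. Arrays within a group correlated at 0.989 to 0.996 and no 2 arrays were identical. On simulated data with 200 changed genes among 12580, the fit recovered 41, 43, 37 and 41% of changes of 0.3 (log2) and 75, 81, 78 and 80% of changes of 0.5 on days 1, 7, 28 and 91, and 6.45, 6.06, 10.2 and 6.2% of its calls were false. The number of arrays limits the precision. Genes given with array values were the 3 catalytic subunits, the 3 largest called rises and falls of each day and the 4 smallest F test p-values; from each companion list up to 4 called genes of the day with most calls were named, and further genes of those lists, Psma1, Psma2, Psmb1, Psmd5, Psmd6 and Psmd14 among them, were named after their values were seen. Alternatives covered scaling, filters, probe sets, covariates, array weights and leaving out each array.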

Additional observations from a re-analysis of the deposited data

Results flagged for a closer look

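In 9 of 128 checks, 1 array stood far from the others of its group by Dixon's criterion. Each check took 1 of 15 named genes, or the mean of the 34 genes, in 1 of the 8 groups. Chance alone meets the criterion in about 1 of 20 checks, and 9 of 128 is not far above that. The checks also share arrays. On day 1, Psma6 read 12.424 in control replicate 2, where the other controls lay at 12.363 to 12.364, and Psmd10 read 8.384 in control replicate 1, where the others lay at 8.286 to 8.298. On day 7, Psmd3 read 10.253 in treated replicate 1 (others 10.401 to 10.456). On day 28, Psmb5 read 11.616 in treated replicate 1 (others 11.692 to 11.714), Psmb4 read 12.686 in treated replicate 4 (12.567 to 12.599), Psmc2 read 11.81 in control replicate 5 (11.441 to 11.531) and Psmd10 read 8.057 in control replicate 2 (8.288 to 8.321). On day 91, Psmc2 read 11.322 in control replicate 1 (11.589 to 11.688) and Psmb3 read 11.629 in treated replicate 2 (11.805 to 11.847).

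The effect of phenobarbital differed between the 4 days in 11 of the 15 genes that the naming rule chose, by limma's moderated F test of equal effects. That rule took 4 genes for the smallest p of this same test and others for large differences on single days. The count is therefore no separate support. Of all tested genes, 35.1% passed this test. The adjusted p was 6.82e-05 for Psmb2, 7.04e-05 for Psmb4, 0.000109 for Psmd3, 0.000191 for Psmb7, 0.000325 for Psmc2, 0.000376 for Psmb6, 0.000459 for Psmb5, 0.00306 for Psmd1, 0.00331 for Psmd9, 0.00568 for Psmb3 and 0.0215 for Psmd2.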

How the results depend on the processing

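The day 1 result varied least: over 14 other settings 21 to 28 of the 34 genes were higher and 0 lower, and over 39 fits without 1 array 26 to 27 and 0. Leaving out 1 array gave 11 to 15 higher on day 7, 11 to 18 higher and 0 to 1 lower on day 28, and 2 to 7 higher and 0 to 4 lower on day 91; 23 to 28 genes passed the test of equal effects. The lower values of day 91 came without control replicate 4 (2 higher, 0 lower) or treated replicate 3 (2 and 0), and 3 were higher without control replicate 5 or treated replicate 4. The day 91 falls became 1 without control replicates 2, 3 or 5 or treated replicate 2, and 0 without treated replicates 1 or 5; the day 28 fall of Psma6 was not called without control replicates 1, 3 or 4 or treated replicates 1 or 2. Quantile normalization gave 0 lower on day 91. Centring on array medians gave 0 lower on day 28, and 8 higher and 0 lower on day 91. Without probe sets that match several transcripts (28 genes left) 9 were higher on day 7, 0 lower on day 28 and 3 higher on day 91. Array weights gave 2 lower on day 28 and 10 higher on day 91. Adjusting for the hybridisation spike-ins, 4 were higher on day 7 (0 of them among the 14), 10 on day 28 and 3 on day 91, and 0 lower on days 28 and 91. Adjusting for the 3′ minus 5′ difference, 3 were higher on day 28 and 3 on day 91, and 0 lower on both. Fits of only the groups compared, with fewer arrays, gave 5 higher on day 7, and 3 higher and 0 lower on day 91. The second brightest probe set (32 genes, chosen after seeing the data, as was the dividing cell covariate) gave 8 higher and 1 lower on day 7 and 0 lower on day 28. Psmb3 on day 28 turned to 0.19, both without probe sets of several transcripts (adjusted p = 0.0121) and by the second probe set (0.0122), and Psmb4 on day 1 was 0.00 by the second probe set (0.995). Causes were not tested. No paired analysis was possible because the labels give no replicate numbers.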
